A study of Mus musculus with 9 samples.

Results

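The respiratory chain and the ATP synthase of the mouse liver were examined through the nuclear genes that encode their subunits. A probe was a member when its RefSeq accession named a gene of the Nduf, Sdh, Uqcr, Cox4 to Cox8 or Atp5 families. The rule found 124 of the 55681 non-control probes of the array, and these stood for 93 of the 20972 gene symbols that could be named. The genes were 36 of complex I, 4 of complex II, 8 of complex III, 20 of complex IV, 17 of complex V and 8 complex I assembly factors of the Ndufaf type. Ndufa4 and Ndufa4l2 were counted with complex IV, since the Ndufa4 protein is now regarded as a cytochrome c oxidase subunit.

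Total RNA of frozen liver, 1 mouse per array, was hybridised to 1-colour Agilent arrays, for 3 groups of 3 male mice aged 20 weeks. STAM-NON and STAM-INS mice both received a low dose of streptozotocin, which kills insulin-secreting cells, shortly after birth and then a high-fat diet, and this model develops diabetes, steatohepatitis and hepatocellular carcinoma. STAM-NON mice had no further treatment, STAM-INS mice were injected with insulin and Normal mice were the controls. For mice of this age the study's methods name both glargine and degludec, which are long-acting insulins, and do not say which one the mice on the arrays received. The study's methods give C57B/6 J for the STAM mice, and the labels give no strain. Streptozotocin and diet were combined in both STAM groups, so these arrays cannot tell them apart. Livers of this model can hold tumours, and the sources used here do not say whether tumour was part of the sampled tissue.

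Electrons from NADH enter the chain at complex I and those from succinate at complex II, pass through ubiquinone to complex III, and travel with cytochrome c to complex IV, which reduces oxygen. Complexes I, III and IV pump protons across the inner mitochondrial membrane, and complex V, the ATP synthase, uses their return to make ATP. A few catalytic subunits are encoded by mitochondrial DNA and all others, including every member here, by nuclear genes. Hepatocytes are rich in mitochondria and draw on this chain for gluconeogenesis, urea synthesis and fatty acid oxidation.

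Nuclear respiratory genes are known to share promoter elements for the factors NRF1, the ETS factor GABP (NRF2), YY1 and the oestrogen-related receptors. RefSeq promoters of 300 bases, from 250 bases before to 50 after the gene start (GRCm38.p6), were given for 76 of the 93 members. Both strands were searched for GCGCATGCG (NRF1 core), CCGGAAG (ETS core), AAGATGGC (YY1 core) and TCAAGGTCA (ERR element). The NRF1 core was found in 10 members (13.2%) against 1.95% of all 27025 genes with a promoter and 3.74% of the 10695 genes that were also tested on the arrays. A looser form, GCGCNTGCG, which contains the core, was found in 26 members (34.2%) against 7.12% of all genes and 13.9% of tested genes. For the ETS core the shares were 25% (19 members), 9.93% and 18.2%, for the YY1 core 14.5% (11 members), 3.19% and 4.86%, and for the ERR element 2.63% (2 members), 0.466% and 0.355%. A match describes letters in the window and was not read as a bound site. Of the 6 members that fell in STAM-NON livers below, 4 had a promoter entry, and a motif matched in Uqcr11 and Atp5j but not in Ndufb5 or Ndufa4. Those matching promoters are shown with that of Cox7a1, the member that rose in STAM-INS livers and in which no motif matched. Capitals mark the ETS and NRF1 cores in Uqcr11 (chr10:80406772-80407071, minus strand) and the YY1 and ETS cores in Atp5j (chr16:84834927-84835226, minus strand, the first of its 2 promoters), while Cox7a1 lies at chr7:30183921-30184220 on the plus strand.
Uqcr11: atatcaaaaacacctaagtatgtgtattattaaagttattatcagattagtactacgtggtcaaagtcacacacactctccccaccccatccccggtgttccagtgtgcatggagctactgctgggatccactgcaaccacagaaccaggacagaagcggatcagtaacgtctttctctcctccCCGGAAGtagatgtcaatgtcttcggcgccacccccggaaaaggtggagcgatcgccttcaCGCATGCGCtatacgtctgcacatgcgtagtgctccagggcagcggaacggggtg
Atp5j: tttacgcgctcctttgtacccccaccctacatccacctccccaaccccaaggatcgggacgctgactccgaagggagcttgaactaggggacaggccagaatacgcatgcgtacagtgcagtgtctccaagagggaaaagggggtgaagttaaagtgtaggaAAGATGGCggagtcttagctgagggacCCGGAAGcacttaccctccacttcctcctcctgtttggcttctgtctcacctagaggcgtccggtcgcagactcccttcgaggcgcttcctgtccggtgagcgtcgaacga
Cox7a1: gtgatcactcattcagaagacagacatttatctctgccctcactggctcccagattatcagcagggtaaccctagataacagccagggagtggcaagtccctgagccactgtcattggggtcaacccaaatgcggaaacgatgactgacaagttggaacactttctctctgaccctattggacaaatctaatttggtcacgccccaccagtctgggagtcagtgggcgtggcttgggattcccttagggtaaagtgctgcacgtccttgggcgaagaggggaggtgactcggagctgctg

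Values are log2 of the background-subtracted signal minus the 75th percentile over the spots of that array, called the centred log2 signal, and differences are the first group minus the second. A probe was tested when it was well above background on all 3 arrays of at least 1 group, which 120 member probes and 90 member genes passed. The genes not tested were Cox7b2, Cox8b and Cox8c, isoforms known from testis or muscle. Each gene is given by its brightest probe, and "called" means an adjusted p under 0.05 in limma over all 26289 tested probes. The share of spots well above background was 59.3%, 47.8% and 63.1% in STAM-NON replicates 1, 2 and 3. It was 65.0%, 47.8% and 49.8% in STAM-INS and 46.2%, 49.2% and 51.1% in Normal mice. The signal at the 75th percentile, before the log, was 300, 241 and 287 in STAM-NON, 269, 255 and 249 in STAM-INS and 246, 234 and 225 in Normal mice. The part of these array differences in the group differences was not tested. The 3 Normal arrays shared a slide that held none of the 6 STAM arrays, so slide and group cannot be told apart in either comparison with Normal, and nothing said whether mice of a group shared a litter or cage. The STAM-NON arrays and STAM-INS replicate 1 were in slide row 1, and the Normal arrays and STAM-INS replicates 2 and 3 in row 2. Row and group thus coincide in STAM-NON against Normal and coincide in part in STAM-INS against STAM-NON. All 8 hepatocyte markers were well above background on every array.

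Most respiratory chain transcripts were lower in STAM-NON than in Normal livers, by an amount that few passed the test with singly and that the scaling of the arrays changed, as given below. Of the 90 member genes, 86 had a lower mean and 4 a higher one (53 and 37 with arrays centred on spike-in RNA), with a median difference of -0.34, or -21.3% on the linear scale. The median over all tested probes was -0.13, so that the members lay 0.21 below it (-0.21 relative), and 83 of the 90 were under that median. Only 6 were called, all lower, which is 6.67% of the members beside 8.93% of all 13389 tested genes, and no member was called higher beside 7.87%. In 59 of the 90 every STAM-NON mouse was below every Normal mouse, which is 65.6% beside 26% of all genes. In a bulk liver, fewer cells of a type and less RNA per cell cannot be told apart.

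The 6 called genes came from 5 of the 6 classes. Ndufaf6, an assembly factor of complex I, was at 2.33, 2.52 and 2.07 in the STAM-NON mice and at 3.02, 2.79 and 3.01 in the Normal mice. It fell by 0.63 (SE 0.14, adjusted p = 0.0244), with no overlap between the groups. Ndufa4 of complex IV was at 6.16, 6.49 and 6.04 against 6.94, 6.76 and 6.82, and fell by 0.61 (SE 0.15, adjusted p = 0.0312). Ndufb5, an accessory subunit of the membrane arm of complex I, was at 5.44, 5.54 and 5.16 against 5.96, 5.82 and 5.93, and fell by 0.52 (SE 0.13, adjusted p = 0.0329). These groups did not overlap either, and in each gene STAM-NON replicate 3 was the lowest mouse.

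Both called genes of complex III encode small accessory subunits. Uqcrb was at 6.59, 6.71 and 6.21 in STAM-NON and at 7.01, 6.95 and 7.08 in Normal mice, and fell by 0.51 (SE 0.14, adjusted p = 0.0472). Uqcr11, whose promoter is shown above, was at 7.31, 7.49 and 7.12 against 7.79, 7.68 and 7.74, and fell by 0.43 (SE 0.12, adjusted p = 0.0429). Atp5j, coupling factor 6 in the stalk of the ATP synthase, was at 6.34, 6.51 and 6.14 against 6.77, 6.70 and 6.83, and fell by 0.43 (SE 0.12, adjusted p = 0.0444). In all of these the lowest Normal mouse was above the highest STAM-NON mouse.

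These calls rested on few mice. Without STAM-NON replicate 3 no member gene was called, beside 7.15% of all genes called in either direction in the same fit, and without any single Normal mouse none was, beside 3.52% to 4.28%. Without STAM-NON replicate 1 there was 1 (all genes, 5.72%), and without STAM-INS replicate 1, 2 or 3 there were 3, 3 and 2 (all genes, 11.7% to 13.2%). Without STAM-NON replicate 2 there were 19 of 90, Cox6a2 among them higher, or 21.1% beside 21.4% of all genes. With all mice, 33 of the 90 genes passed an adjusted p under 0.1 (36.7%), beside 29.3% of all genes in either direction. Cox7a1 and Cox6a2 were higher among these 33.

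Counted over every probe, 15 of the 120 member probes (12.5%) were called, all lower, beside 9.76% of the 26289 tested probes. In 23 genes more than 1 probe was tested, 53 probes in all, and all probes of a gene shared their direction in both comparisons with Normal. Of the 5 probes of Atp5l, subunit g of the ATP synthase, 4 were called with differences of -0.46 to -0.64, although its brightest probe was not (-0.43, adjusted p = 0.0573). All 3 probes of Uqcrb and both of Ndufb5 were called.

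**Figure D1:**
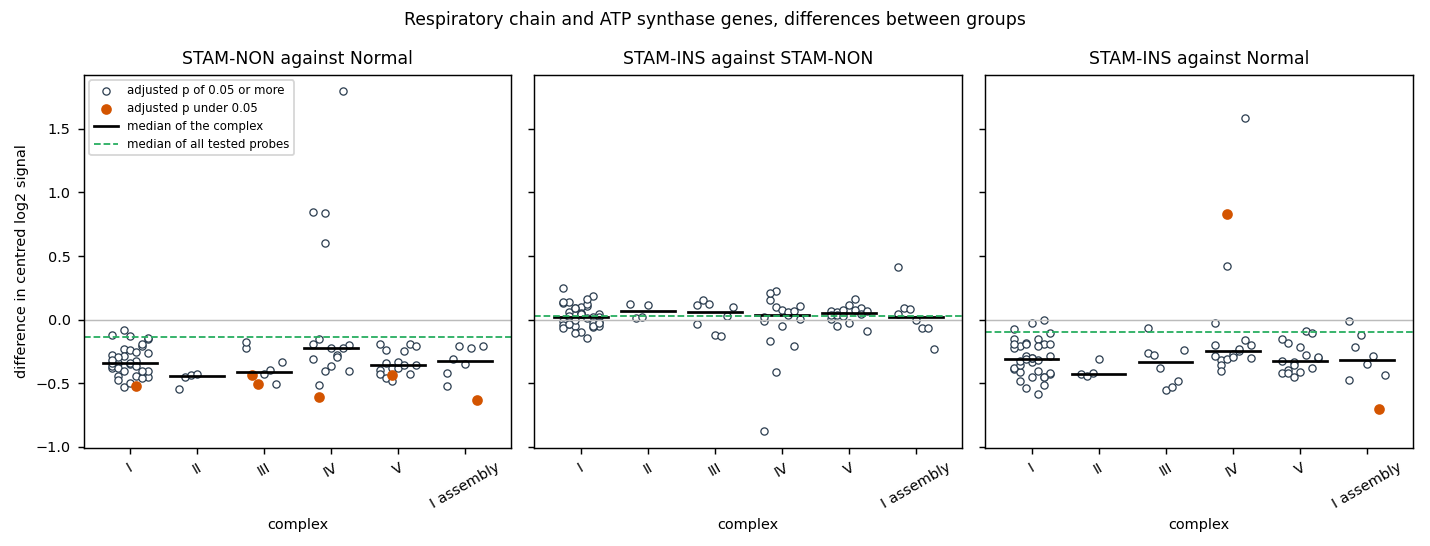
Difference in centred log2 signal of each tested member gene by complex, in the 3 comparisons, with filled points for an adjusted p under 0.05, a black line at the median of each complex and a dashed line at the median of all tested probes. In both comparisons with Normal the median of each class lies below the dashed line, at -0.13 and -0.09, while the points of STAM-INS against STAM-NON lie around 0.

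By complex, the median difference between STAM-NON and Normal livers was -0.34 for complex I, -0.44 for complex II, -0.41 for complex III, -0.23 for complex IV, -0.36 for complex V and -0.33 for the complex I assembly factors. Relative to all probes these were -0.21, -0.31, -0.28, -0.09, -0.22 and -0.19. In complex I all 36 genes had a lower mean, from -0.53 in Ndufb3 (adjusted p = 0.0726) to -0.08 in Ndufa7 (adjusted p = 0.639). Of these genes 72.2% had groups that did not overlap, beside 26% of all genes. Complex II, which is also an enzyme of the TCA cycle, had 4 genes with close differences and no overlap in any of them. Its flavoprotein subunit Sdha was at 5.76, 6.04 and 5.51 in STAM-NON and at 6.31, 6.28 and 6.36 in Normal mice, a difference of -0.55 (adjusted p = 0.0555), and its membrane anchor Sdhd differed by -0.42 (adjusted p = 0.0523). Complex III ranged from Uqcrb to Uqcrq at -0.17 (adjusted p = 0.259). Complex V ranged from Atp5pb, the peripheral stalk subunit b, at -0.48 (adjusted p = 0.0719) to Atp5mpl at -0.19 (adjusted p = 0.368). In 13 of its 17 genes the groups did not overlap (76.5%, beside the same 26%).

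The complex medians depended on STAM-NON replicate 3. Without it the relative medians were -0.07, -0.18, -0.11, 0.05, -0.11 and -0.11 for complexes I to V and the assembly factors, in that order. Without STAM-NON replicate 2 the relative median of complex I was -0.34.

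A group of 20 core genes was taken, mostly of catalytic and redox subunits. In complex III the core proteins, and in complex IV all the genes taken, are structural or regulatory instead. The 20 genes comprised 7 of complex I that carry flavin or iron-sulfur centres or bind quinone, the 4 of complex II, the core proteins and Rieske protein of complex III, Cox4i1, Cox5a and Cox5b of complex IV, and the α, β and γ subunits of F1. At the main scaling all 20 had a lower mean in STAM-NON than in Normal livers, with a median of -0.40 and a range of -0.55 to -0.19. None was called by its brightest probe, the lowest adjusted p being 0.0523 for Sdhd. In 18 of the 20 the groups did not overlap at this scaling, beside 26% of all genes. A second probe of Atp5c1, the γ subunit, was called lower (-0.67, adjusted p = 0.0219).

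Single core genes showed how the STAM-NON mice differed among themselves. Ndufs1, the largest iron-sulfur subunit of complex I, was at 5.81, 5.62 and 4.91 in STAM-NON and at 5.82, 5.91 and 5.94 in Normal mice, a difference of -0.44 (adjusted p = 0.176). Here STAM-NON replicate 1 was next to the Normal mice and replicate 3 about 1 log2 unit lower. Atp5b, the catalytic β subunit of the ATP synthase, was at 8.75, 8.56 and 8.11 against 8.82, 8.77 and 8.86, a difference of -0.34 (adjusted p = 0.166) with the same order of mice. Cox4i1, the ubiquitous isoform of a regulatory subunit of complex IV, was at 8.03, 8.12 and 7.67 against 8.19, 8.01 and 8.18, and these ranges overlapped (difference -0.19, adjusted p = 0.371).

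Over all members, the median difference of a mouse from the Normal mean, relative to the same median over all probes, was -0.06, -0.09 and -0.46 in STAM-NON replicates 1, 2 and 3. The STAM-INS mice were at -0.21, -0.24 and -0.17 and the Normal mice at 0.00, -0.04 and 0.04. The group means were -0.20 ± 0.22, -0.21 ± 0.04 and -0.00 ± 0.04 (SD, n = 3 each). STAM-NON replicate 3 was the lowest of its group in 81 of 89 genes, STAM-INS replicate 2 in 62 of 90 and Normal replicate 2 in 67 of 90. Untreated mice thus spread more widely than the other groups, and insulin-treated mice lay close together below the Normal mice.

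**Figure D2:**
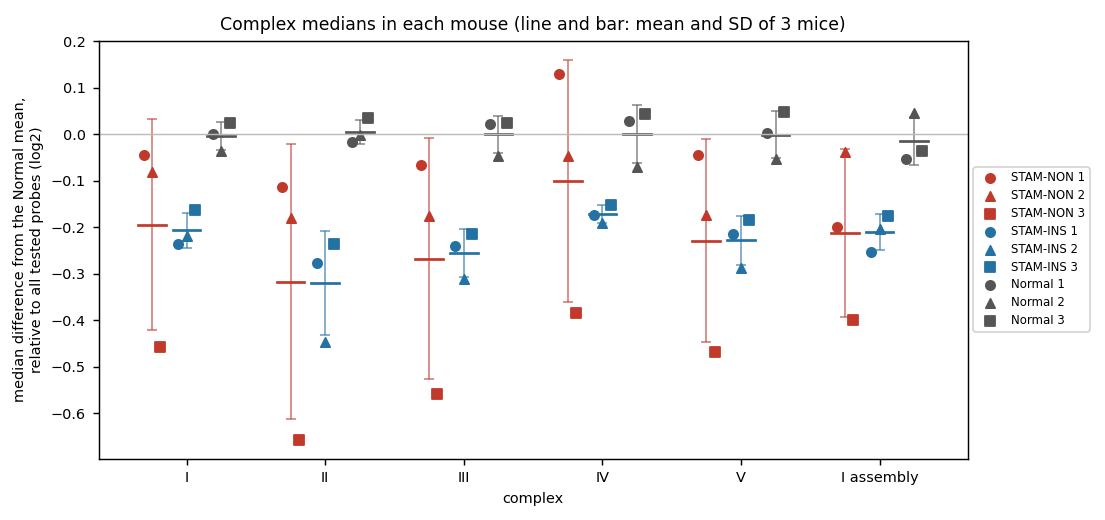
Median difference from the Normal mean over the genes of each complex, relative to all tested probes (log2), for every mouse, with a line and bar for the mean and SD of the 3 mice of a group. STAM-NON replicate 3 is the lowest mouse in all 6 classes, between -0.38 and -0.66, while the STAM-INS mice lie between -0.15 and -0.45.

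The comparison of STAM-INS with STAM-NON livers addresses what insulin does to these transcripts in the model. No member gene was called in limma, beside 0.0822% of all tested genes (11 of 13389), and 1 passed an unadjusted p under 0.05. The median difference was 0.04 beside 0.03 over all tested probes, with 58 genes higher and 32 lower. The relative medians of the 6 classes lay between -0.00 and 0.04. Of the 20 core genes, 10 were lower and 10 higher, from -0.14 to 0.16.

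The arrays limited how much of an insulin effect could have been seen. The 95% interval of the difference lay within 1.5-fold either way for 81 of the 90 genes, among them all 17 of complex V, all 4 of complex II and 34 of 36 of complex I, but 13 of 17 of complex IV. The median half-width of the interval was 0.34 on the log2 scale, as large as the median difference between STAM-NON and Normal. For Sdha the difference was 0.12 (95% interval -0.26 to 0.50) and for Atp5b -0.05 (95% interval -0.42 to 0.32).

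Ndufaf8, an assembly factor that stabilises another factor of complex I, was the gene under the unadjusted threshold. It was at 0.22, 0.62 and 0.33 in STAM-NON, at 0.72, 0.81 and 0.88 in STAM-INS and at 0.77, 0.98 and 0.69 in Normal mice. Insulin-treated mice were all above untreated ones and overlapped the Normal mice, but the difference of 0.41 had an adjusted p of 0.492. Ndufv3, an accessory subunit beside the NADH site, was the other gene with every STAM-INS mouse above every STAM-NON mouse (difference 0.25, adjusted p = 0.572). A second probe of Ndufv3 differed by 0.03 (adjusted p = 0.961). These 2 of 90 genes stand beside 7.77% of all genes with such an order.

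Against Normal livers, those of insulin-treated mice were also lower in most members. A lower mean was seen in 87 of the 90 genes, with a median of -0.30 beside -0.09 over all probes, and in 73 of them (81.1%) every STAM-INS mouse was below every Normal mouse, beside 27.3% of all genes. Relative medians were -0.21 for complex I, -0.33 for complex II, -0.24 for complex III, -0.15 for complex IV, -0.23 for complex V and -0.22 for the assembly factors. The same Normal mice served in both comparisons. The count of calls was again small, 1 lower beside 7.48% of all genes and 1 higher beside 6.15%. At an adjusted p under 0.1, 15 genes passed (16.7%), Cox7a1 among them higher, beside 23.7% of all genes in either direction. All 20 core genes had a lower mean at the main scaling, from -0.59 in Ndufs1 to -0.20 in Cox4i1, none called by its brightest probe. At that scaling 18 of the 20 were without overlap, beside the same 27.3% of all genes. The second probe of Atp5c1 was called lower here too (-0.60, adjusted p = 0.0287).

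Ndufaf6 was the member called lower in STAM-INS livers, as it was in STAM-NON. The STAM-INS mice were at 2.16, 2.28 and 2.29, all below the lowest Normal mouse at 2.79, and the gene fell by 0.70 (adjusted p = 0.0174). Cox7a1 was called higher and is described below with the other isoforms. The count of calls in either direction became 24 of 91 when STAM-NON replicate 3 was left out, or 26.4% beside 16.4% of all genes. It was 3 when STAM-NON replicate 1 was left out (all genes, 13.7%). Cox7a1 was called higher in both, and Cox6a2 in the second. Without STAM-INS replicate 1 the only call was Cox7a1, higher (all genes, 8.01%). The count was also 1 without STAM-NON replicate 2, STAM-INS replicate 3 or Normal replicate 2 (all genes, 5.48% to 12.2%). Neither Cox7a1 nor Cox6a2 was called there. It was 0 without STAM-INS replicate 2 or Normal replicate 1 or 3 (all genes, 3.87% to 5.21%).

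Complex IV was the class in which members moved in different ways. Of its 17 tested genes, 13 had a lower mean in STAM-NON livers and 4 a higher one, and these 4, Cox6a2, Cox7a1, Cox6b2 and Ndufa4l2, are all isoforms known from muscle, testis or hypoxic cells rather than the ubiquitous partners of the same subunit. Cox4i2, also a restricted isoform, went the other way (-0.15, adjusted p = 0.416). The partners Cox6a1, Cox7a2 and Cox6b1 differed by -0.28, -0.37 and -0.20 (adjusted p = 0.177, 0.126 and 0.373), and Ndufa4 fell as above. Levels of different probes are not comparable, so which isoform was the more abundant cannot be read from these values.

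Cox7a1, the heart and skeletal muscle isoform of subunit VIIa, which brown fat also uses, was at 2.65, 2.59 and 2.11 in STAM-NON, at 2.28, 2.94 and 2.81 in STAM-INS and at 1.92, 1.65 and 1.96 in Normal mice. Every STAM mouse was above every Normal mouse. It rose in STAM-INS against Normal by 0.83 (SE 0.21, adjusted p = 0.038), and differed by 0.61 in STAM-NON (adjusted p = 0.0834). The call in STAM-INS was lost without STAM-NON replicate 2 (adjusted p = 0.0582), STAM-INS replicate 2 (adjusted p = 0.131) or 3 (adjusted p = 0.101), or Normal replicate 1 (adjusted p = 0.0888), 2 (adjusted p = 0.11) or 3 (adjusted p = 0.087).

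Cox6a2, the muscle isoform of subunit VIa, was at -0.79, -3.11 and -2.24 in STAM-NON and at -2.72, -2.78 and -1.27 in STAM-INS mice. No Normal array had it well above background, with signals of -3.95, -3.65 and -3.93. At the main setting STAM-NON livers had at least 3.26-fold more (adjusted p = 0.0697) and STAM-INS livers at least 2.82-fold more (adjusted p = 0.104), not past the threshold in either. These bounds did not hold at every setting. With normexp background correction the log2 differences were 0.62 (adjusted p = 0.14) and 0.47 (adjusted p = 0.271). Without STAM-NON replicate 1 the log2 difference of STAM-NON was 1.16 (adjusted p = 0.157). Cox6a2 entered the test only through STAM groups in which it was high, so these p-values are a description. Leaving out STAM-NON replicate 2 brought the p of the STAM-NON comparison under the threshold (adjusted p = 0.035), and leaving out STAM-NON replicate 1 that of the STAM-INS comparison (adjusted p = 0.0489).

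The other isoforms gave no call. Cox8b, the muscle and brown fat isoform of subunit VIII, was at 1.28 in STAM-NON replicate 1 and at or below -3.33 in the other 8 mice, and was not tested. Cox6b2, the testis isoform of VIb, was at 0.41, 0.21 and -0.97 in STAM-NON, -1.31, -0.87 and -0.78 in STAM-INS and -1.28, -1.37 and -0.24 in Normal mice, so that all groups overlapped (STAM-NON against Normal 0.85, adjusted p = 0.177). Cox4i2, the isoform known from lung and hypoxic cells, was lower in all 3 STAM-INS mice (-0.94, -1.02 and -0.92) than in the Normal mice (-0.70, -0.63 and -0.59), with a difference of -0.32 (adjusted p = 0.12). Ndufa4l2, a hypoxia-induced relative of Ndufa4, had high values in single mice, 2.59 in STAM-NON replicate 3 and 1.94 in STAM-INS replicate 2, against -0.39 to 0.71 in the other 7. Its difference of 0.84 in STAM-NON (adjusted p = 0.461) was 0.04 without replicate 3.

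Genes of other tissues were measured beside these isoforms. None of the 6 striated muscle markers was tested, 5 of them being well above background on no Normal array and 3 on no STAM-NON array. Their summed level was -1.61 to -1.24 in STAM-NON, -2.41 to -1.40 in STAM-INS and -2.83 to -2.08 in Normal mice. The 5 adipose markers summed to 1.77 to 5.91, -0.66 to 0.56 and -2.91 to -2.15. Ucp1 and Adipoq, which define brown fat and adipocytes, were at 0.82 and -1.33 in STAM-NON replicate 1 and at or below -5.25 and -4.34 in the other mice. The 1 adipose marker tested, Cidea, a lipid droplet protein that steatotic liver also expresses, was at 5.86, 1.71 and 1.80 in STAM-NON, -0.07, -0.84 and 0.47 in STAM-INS and -4.08, -3.59 and -2.57 in Normal mice. Of the Normal arrays just 1 had it well above background, so it was tested through the STAM arrays, and its adjusted p in STAM-NON against Normal was 0.011. Whether cells of another tissue took part in the isoform values was not tested.

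**Figure D3:**
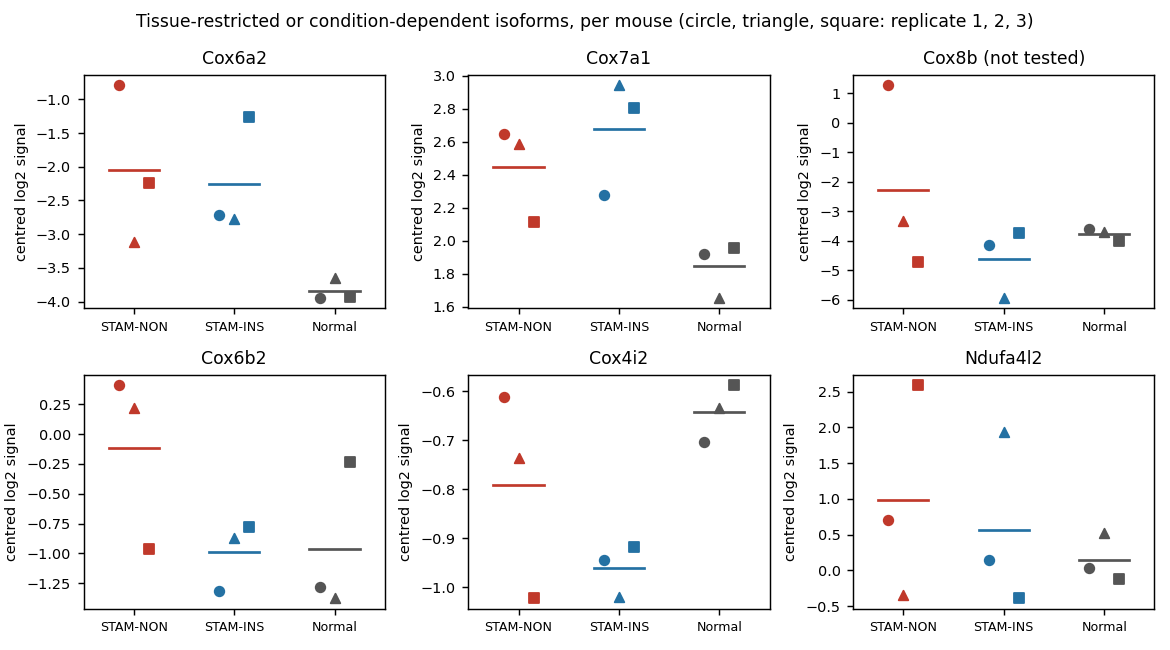
Centred log2 signal of 6 tissue-restricted or hypoxia-related isoforms in each mouse, with circle, triangle and square for replicates 1, 2 and 3 and a line at the group mean, each panel on its own scale. Cox7a1 and Cox6a2 are higher in all 6 STAM mice than in the Normal mice, Cox8b is high in STAM-NON replicate 1 alone, and Cox6a2 was not well above background in Normal mice.

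In complex V, 3 genes encode the same mature subunit c of the membrane rotor. Atp5g3 differed by -0.42 in STAM-NON (adjusted p = 0.0513), Atp5g2 by -0.21 (adjusted p = 0.331) and Atp5g1 by -0.19 (adjusted p = 0.279). In STAM-INS the values against Normal were -0.42, -0.30 and -0.11, none called, and differences between the 3 genes were not tested.

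Most members are bright, and bright probes of any kind were lower in STAM livers. Of the 90 members, 56 had a mean centred log2 signal above 6. Over all tested probes, the median difference between STAM-NON and Normal ran from 0.04 for signals under -2 to -0.26 for signals above 6. Against the 3727 probes with a mean signal above 4, chosen as a baseline after the values were seen, the median of the 74 members in that range was -0.36 beside -0.25, a gap of -0.11 with 56 of 74 members below. For STAM-INS against Normal it was -0.31 beside -0.19, a gap of -0.12 with 62 of 74 below. By mouse the gap was 0.05, -0.01 and -0.35 in STAM-NON, -0.10, -0.18 and -0.10 in STAM-INS and -0.02, -0.01 and 0.03 in Normal mice. On this baseline STAM-NON replicates 1 and 2 did not lie below the Normal mice.

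**Figure D4:**
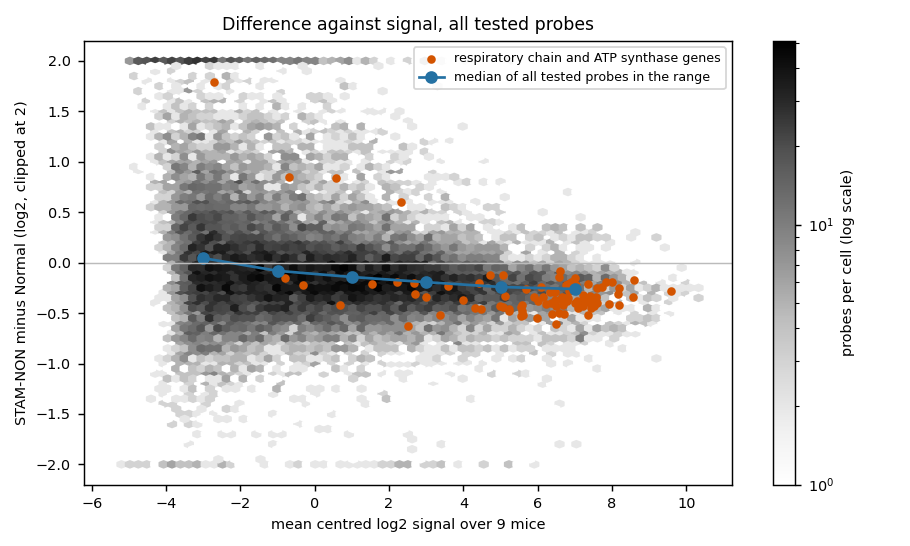
Difference between STAM-NON and Normal livers (log2, drawn at 2 where it was larger) against mean centred log2 signal over the 9 mice, for all tested probes in grey and 1 probe of each member gene in orange, with the median of all probes in ranges of signal in blue. The blue line falls from 0.04 to -0.26 as the signal rises, and most members lie in the brightest range, under the line.

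The size of the difference also depended on how arrays were put on 1 scale, which moves all probes. With arrays centred on the E1A spike-in RNA, added at fixed amounts, the all-probe median was 0.18 instead of -0.13, and 53 of 90 members were lower in STAM-NON with 2 free of overlap (all genes, 6.66%). With the percentile of the probes that all arrays detected, 79 were lower and 24 free of overlap (all genes, 13.6%). These settings shift whole arrays, so that the relative median of -0.21 was the same. Quantile normalisation, which also bends the scale, gave 64 lower, 13 free of overlap (all genes, 17.1%) and a relative median of -0.05. For STAM-INS against Normal, 73 were lower with the spike-ins and 40 free of overlap (all genes, 15.1%), and with the detected percentile 77 were lower and 47 free of overlap (all genes, 17.6%). With quantiles 67 were lower and 37 free of overlap (all genes, 20.6%), with a relative median of -0.07. For STAM-INS against STAM-NON, 81 were lower with the spike-ins, where the all-probe median was -0.12.

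Other genes of mitochondrial function were read from lists, given by their relative medians between STAM-NON and Normal livers, and their calls stand beside the 8.93% of all tested genes called lower and 7.87% called higher. Assembly factors outside the rule had a relative median of -0.22 over 35 genes, close to that of the subunits, with 6 called, all lower. They were Tmem126b and Tmem126a for complex I, Surf1, Cox11 and Cox16 for complex IV, and Lrpprc, which stabilises mitochondrial mRNAs, with differences from -0.66 (Tmem126b, adjusted p = 0.0156) to -0.47 (Surf1, adjusted p = 0.0376). The 77 tested genes of the mitochondrial ribosome had a relative median of -0.13, with Mrpl1, Mrpl9 and Mrps10 called lower. The 20 genes of the cytosolic ribosome were at -0.03, with Rpl4 called lower (-0.46, adjusted p = 0.0256).

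Electron carriers and quinone enzymes, 16 genes, had a relative median of -0.12 with 3 called lower. Cyc1, cytochrome c1 of complex III, which the rule's names do not include, fell in STAM-NON by 0.59 (adjusted p = 0.0475) and in STAM-INS by 0.68 (adjusted p = 0.0343). Etfa, which carries electrons from fatty acid oxidation, fell in STAM-NON by 0.59 (adjusted p = 0.0285). Coq8a, a kinase-like protein of ubiquinone synthesis, was at 3.53, 3.67 and 3.28 in STAM-NON, 4.84, 4.67 and 4.91 in STAM-INS and 4.08, 4.87 and 4.72 in Normal mice. It fell in STAM-NON against Normal (-1.06, adjusted p = 0.0183), and every insulin-treated mouse was above every untreated one, with a difference of 1.31 that had an adjusted p of 0.137.

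Regulators of mitochondrial biogenesis, 16 genes, had a relative median of -0.15 with 4 called lower in STAM-NON. Gabpa, the DNA-binding subunit of the ETS factor named above, was at 0.72, 0.91 and 0.84 in STAM-NON and at 1.41, 1.60 and 1.47 in Normal mice and fell by 0.67 (adjusted p = 0.0127), and it fell by 0.44 in STAM-INS (adjusted p = 0.0378). Ppargc1b, a coactivator of respiratory genes, was at -0.90, -0.95 and -1.63 in STAM-NON, -1.78, -2.0 and -1.87 in STAM-INS and -0.54, -0.46 and -0.27 in Normal mice. It fell by 0.73 in STAM-NON (adjusted p = 0.0419) and by 1.46 in STAM-INS (adjusted p = 0.00474). Its relative Ppargc1a, which fasting induces in liver, differed by 0.54 (adjusted p = 0.142). Polg and Polg2, the subunits of the mitochondrial DNA polymerase, fell by 0.56 (adjusted p = 0.0344) and 0.69 (adjusted p = 0.0447), while Nrf1 differed by -0.08 (adjusted p = 0.712).

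The 12 TCA cycle genes had a relative median of 0.03, with Idh3b, a subunit of NAD-dependent isocitrate dehydrogenase, called lower (-0.72, adjusted p = 0.0403). Their median by mouse was 0.34, -0.01 and -0.46 in STAM-NON replicates 1, 2 and 3. The 8 carriers and porins were at -0.07, and Ucp2, an inner membrane carrier, rose in STAM-NON (2.62, adjusted p = 0.0129) and in STAM-INS livers (1.97, adjusted p = 0.0258). Against Normal, where 7.48% of all tested genes were called lower in STAM-INS and 6.15% higher, STAM-INS relative medians were -0.19 for the outside assembly factors (4 lower), -0.13 for the mitochondrial ribosome (1), -0.01 for the cytosolic ribosome (0), -0.25 for electron carriers (2), -0.11 for biogenesis (4), -0.17 for the TCA cycle (1) and -0.19 for carriers (1 higher). No gene of these lists was called in STAM-INS against STAM-NON. No probe could be named for the 13 mitochondrially encoded genes.

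**Figure D5:**
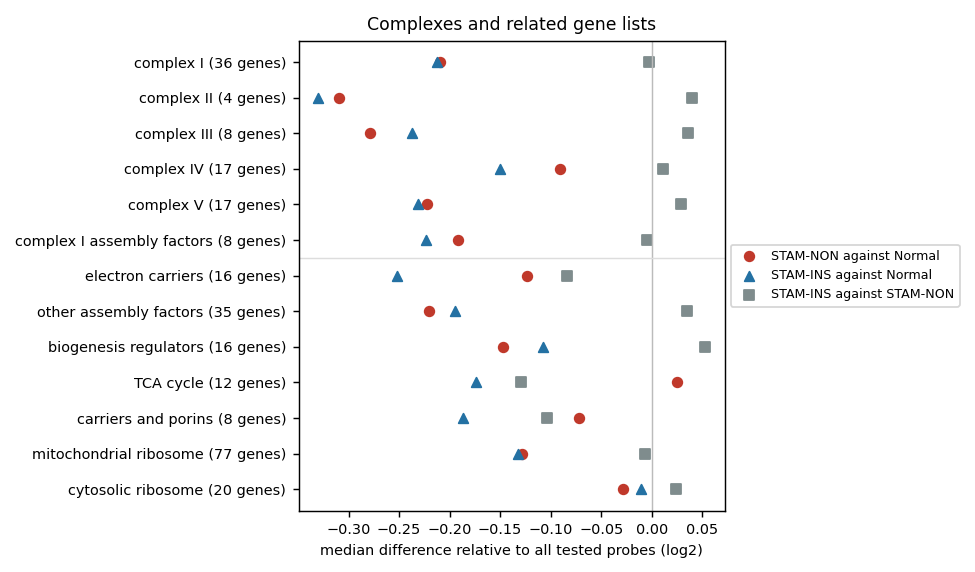
Median difference relative to all tested probes (log2) for each complex and each related list, with the number of tested genes and 1 symbol per comparison. Complex II lies lowest against Normal, at -0.31 and -0.33, and the cytosolic ribosome lies closest to 0 in both comparisons with Normal apart from the TCA cycle in STAM-NON at 0.03.

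Markers of liver cell types moved between the same groups. At the main scaling all 8 hepatocyte markers had a lower mean in STAM-NON, of which Cps1, a mitochondrial enzyme of the urea cycle, was called (-0.67, adjusted p = 0.0297), and their summed level was 11.97 to 12.38 in STAM-NON, 12.35 to 12.52 in STAM-INS and 12.52 to 12.58 in Normal mice. All 6 macrophage markers were higher, of which Trem2, Cd5l and Clec4f were called, with summed levels of 7.26 to 7.96, 7.01 to 8.05 and 6.32 to 6.89. The 6 stellate cell markers ranged over 4.01 to 5.04, 3.28 to 4.66 and 2.91 to 3.79 with none called, and 3 cholangiocyte markers were higher with Krt7 and Sox9 called. Of 4 endothelial markers 3 had a higher mean, of which Lyve1 was called, and 1 a lower one. Of 3 lymphocyte markers only Ptprc was higher, and it was called, while the other 2 had a lower mean. Summed levels of both lists overlapped between STAM-NON and Normal mice (endothelial, 4.74 to 5.49 and 4.86 to 5.08). Of 3 erythroid markers none was called. The summed erythroid level was 6.44, 8.29 and 9.39 in STAM-NON, 6.78, 9.79 and 8.90 in STAM-INS and 7.04 to 7.21 in Normal mice. STAM-NON replicate 3 and STAM-INS replicate 2, the mice with the lowest respiratory chain values of their groups, had the highest erythroid level of their groups. They also had the highest endothelial level of their groups (5.49 and 5.15). Neither order held in Normal mice. There replicate 2 was lowest in the respiratory chain, while replicate 3 had the highest erythroid (7.21) and endothelial (5.08) levels. The part of these cell types in the respiratory chain values was not tested.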

How the data were processed

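The deposited files hold the scanner output of Agilent Feature Extraction 11.5.1.1 for 9 arrays, with a background-subtracted intensity per spot that the authors left unnormalised between arrays. The probes were designed on mm9. No normalisation or test for arrays is named in the methods of the study. Control and flagged spots (161 to 217 per array) were left out, no spot was saturated, and spots of a probe were averaged. Accessions named 27656 of 55681 probes through a RefSeq table of GRCm38.p6. Groups and replicate numbers came from the sample labels.

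Values are log2 intensity minus the array's 75th percentile. The filter asked for well above background in 0.5 or more of a probe's spots, on all 3 arrays of a group. All 9 arrays were fitted with limma (version 3.58.1, R version 4.3.3; two-sided eBayes test, 6 residual degrees of freedom) with Benjamini-Hochberg adjustment over 26289 probes. SEs, intervals and adjusted p-values are from this fit. The number of arrays limits the precision, and files of this kind give no counts. Cox6c had no value on the array of STAM-NON replicate 1. For a fold given as "at least", each array of the dimmer group entered with its lowest detected signal, or with the probe's own where that was higher. A summed level is log2 of the summed linear signals of a marker list, and striated muscle or adipose lists include dim probes.

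The members and lists were chosen with earlier results of these data known. Genes named are the calls (up to 6 each way per comparison), the extremes of each complex, core subunits, isoform pairs and untested members. A few others (Atp5l, Ndufaf8, Ndufv3) were chosen after their values were seen. Alternatives changed the centring, background correction (normexp on median signals), filter, fit, block, threshold and arrays. The code was tested on simulated data.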

Additional observations from a re-analysis of the deposited data

How the results depend on the processing

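Counts of called member genes moved with almost every setting, while none of the called genes changed direction in any of them. Shares in brackets are of all tested genes called in either direction under the same setting. For STAM-NON against Normal (6 calls, 16.8%) the count was 0 with arrays centred on the median (11.4%), 1 with the E1A spike-ins (Cox7a1, higher; 13.4%), 2 with the detected percentile (13.2%), 1 with quantiles (11.7%), 23 with normexp (19.2%), 0 without the filter (0.534%), 12 with the filter on all 9 arrays (18.8%), 21 with trend and robust (20.7%), 0 with the 2 groups alone (8.6%), 12 with array weights (19.9%), 0 with the slide row as a block (0.0448%) and 33 at an adjusted p under 0.1 (29.3%). For STAM-INS against Normal (2 calls, 13.6%) the counts were 1 with the median (10%), 1 with the spike-ins (9.01%), 12 with normexp (15.2%), 0 without the filter (1.44%), 6 with trend and robust (15.9%), 26 with the 2 groups alone (20.4%), 21 with array weights (23.2%), 1 with the slide row (7.95%) and 15 at 0.1 (23.7%). Some of these calls were rises. In STAM-NON against Normal, Cox7a1 was called higher with the spike-ins, the detected percentile, normexp and at 0.1. Cox6a2 was called higher there with array weights and at 0.1. In STAM-INS against Normal, the 1 call with the spike-ins and with the slide row was Cox7a1, higher. Cox7a1 was among the calls there in every other listed setting except the median and no filter, and Cox6a2 with the 2 groups alone and array weights. Leaving out 1 mouse gave 0 to 19 calls (3.52% to 21.4%) and 0 to 24 calls (3.87% to 16.4%). The cause was not tested. STAM-NON and Normal arrays shared no slide row, so with the row as a block they were compared only through the STAM-INS arrays. That count therefore cannot tell how the calls depend on row. For STAM-INS against STAM-NON the count was 0 in all settings run. Samples with the same replicate number did not deviate together (r between -0.29 and 0.15), and with a replicate block the counts were 0 in STAM-NON against Normal (8.05%), 0 in STAM-INS against Normal (7.16%) and 0 in STAM-INS against STAM-NON. Relative medians of STAM-INS against Normal became smaller with quantile normalisation, -0.087, -0.20, -0.10, -0.0088 and -0.080 for complexes I to V, and against probes with a mean signal above 4 they were -0.12, -0.14, -0.057, -0.14 and -0.13 for complexes I, III, IV, V and the assembly factors. Leaving out 1 mouse gave -0.25 to -0.18 for complex I in that comparison, and -0.38 to -0.11 for the assembly factors in STAM-NON against Normal. Complex IV in STAM-NON against Normal ranged from -0.20 to 0.05 in the same way. Ndufaf6 kept its call in 12 of 23 alternatives for STAM-NON and 15 for STAM-INS, and Cox7a1 in 14. The other 5 genes called in STAM-NON kept theirs in 7 to 10.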
